A study of Mus musculus with 4 samples.

Results

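The MAP kinase cascade genes are the 43 protein-coding genes of the mouse RefSeq table (GRCm38.p6, the assembly that mm10 names) whose symbol is Map4k, Map3k, Map2k or Mapk followed by a number, out of 21883 nuclear protein-coding genes. They divide into 5 Map4k, 18 Map3k, 7 Map2k and 13 Mapk genes. Each was searched for streptavidin ChIP peaks whose midpoint lay within the gene or within 20 kb on either side, a stretch called the window here. The windows held 28 of the 4246 NKT peaks and 34 of the 5198 PLZF-transgenic peaks.

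The peaks came from a study of where PLZF (gene symbol Zbtb16), a zinc finger transcription factor of innate-like T cells, binds in mouse thymocytes of C57BL/6 background. PLZF-DNA complexes from sonicated nuclei were collected on streptavidin beads. The NKT library came from PLZF tg/BirA tg/Valpha14 tg mice and the PLZF-transgenic library (labelled Tg thy) from PLZF tg/BirA tg mice, so all mice carried a PLZF transgene and BirA, the bacterial biotin ligase, and the Valpha14 transgene of the NKT library's mice encodes an alpha chain used by invariant natural killer T cells. Both are labelled thymocytes, with no word on sorting, on the age of the mice or on the promoters of the transgenes, so NKT names a library here and not a sorted cell type. Each group had 1 ChIP library, so no difference between the lists has a replicate check or a test. The 2 input libraries are not analysed here. With no library from mice lacking the PLZF transgene among the samples, a peak need not be a PLZF site. Of 10 thymocyte marker genes all had a peak in their window in both lists, and of 6 B cell markers 2 had one in each. Of 6 myeloid and 6 thymic epithelial markers none had one in either. Over all protein-coding genes the share was 16.9% (NKT) and 19.9% (PLZF-transgenic), and sets of 6 genes are too few to be set apart from it. A peak is no measure of expression.

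MAP kinase cascades pass a signal from the cell surface to the nucleus through kinases that phosphorylate one another in turn. MAP4Ks act on MAP3Ks, which phosphorylate MAP2Ks, and these activate the MAP kinases proper, the ERK, JNK, p38 and ERK5 enzymes, which phosphorylate transcription factors and further kinases. In thymocytes, ERK signalling downstream of the T cell receptor takes part in positive selection, and the many MAP3Ks feed stress, cytokine and receptor signals into the few MAP2Ks.

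For a few of these peaks the underlying bases could be read, because they overlap the 250 bases before a gene start that the RefSeq promoter table lists (GRCm38.p6). The stretches below are shown because the first is the only one before a listed start of a cascade gene that a peak overlapped. The others show window peaks that sit at the start of a neighbouring gene. Each is given 5′ to 3′ on the strand of the gene it precedes (the plus strand in all cases). Capitals mark an ETS core (CCGGAA or its complement TTCCGG) or a GC box (GGGCGG).
Before the Map3k11 start, NKT peak, chr19:5689004-5689095: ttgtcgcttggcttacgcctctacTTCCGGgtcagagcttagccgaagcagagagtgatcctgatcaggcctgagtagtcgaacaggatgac
Before the Taco1 start, in the Map3k3 window, peaks of both lists, chr11:106065841-106066090: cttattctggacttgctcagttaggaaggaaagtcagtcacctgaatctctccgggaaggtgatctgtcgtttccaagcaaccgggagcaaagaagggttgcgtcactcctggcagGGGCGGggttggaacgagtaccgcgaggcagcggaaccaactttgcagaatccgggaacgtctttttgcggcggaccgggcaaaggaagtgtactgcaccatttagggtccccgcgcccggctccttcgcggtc
Before the Sf1 start, in the Map4k2 window, NKT peak, chr19:6363531-6363689: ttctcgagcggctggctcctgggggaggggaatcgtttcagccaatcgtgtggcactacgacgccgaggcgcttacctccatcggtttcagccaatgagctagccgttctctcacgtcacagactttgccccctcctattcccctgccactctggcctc
The Map3k11 stretch holds 1 ETS core and the Taco1 stretch 1 GC box and 1 E-box (CANNTG, left in lower case), while the Sf1 stretch holds none of the motifs searched. The Map3k11 peak and the 250 bases overlap from 5688951 on, so the 92 bases printed are part of that overlap. Its motif count covers these 92 bases alone.

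Peaks lay mostly at the upper tiers of the cascade, whose windows held 24 of the 28 NKT peaks and 26 of the 34 PLZF-transgenic peaks. At least 1 peak was found in the windows of 17 of the 43 genes in the NKT list, where 16.9% of all protein-coding genes had one, and of 21 in the PLZF-transgenic list, where 19.9% of all had one. In both lists 13 cascade genes had a peak, against 12.4% of all genes, and in either list 25 had one, against 24.4% of all. By tier, a peak was found in the NKT list at 3 of 5 Map4k, 10 of 18 Map3k, 2 of 7 Map2k and 2 of 13 Mapk genes, and in the PLZF-transgenic list at 3, 10, 3 and 5 of them. The Map4k and Map3k genes together had a peak at 13 of 23 genes in the NKT list and 13 of 23 in the PLZF-transgenic list, 11 being common, while the Map2k and Mapk genes together had one at 4 of 20 in the NKT list and at 8 of 20 in the PLZF-transgenic list, with 2 in common.

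The windows differ in length, which bears on such counts. The median gene was 89.4 kb long among Map4k, 63.1 kb among Map3k, 67.8 kb among Map2k and 23.2 kb among Mapk genes, against 17.2 kb among all protein-coding genes. Per Mb of window, the Map4k genes had 8.35 NKT and 6.68 PLZF-transgenic peaks, the Map3k genes 9.60 and 11.1, the Map2k genes 2.38 and 3.57, and the Mapk genes 1.67 and 4.16, where the windows of all protein-coding genes had 2.34 and 2.93. The Map4k and Map3k genes thus stood above the density over all genes in both lists, and the Map2k and Mapk genes lay nearer to it. Among the 26 cascade genes longer than 31.2 kb, the longest of 3 equal classes of all genes, 12 had an NKT peak and 16 a PLZF-transgenic peak, against 21.5% and 24.6% of all genes of that length. Among the 13 of middle length, 5 had an NKT peak and 3 a PLZF-transgenic peak, against 17.1% and 21.3% of all, and among the 4 shortest 0 and 2 had one, against 12.04% and 13.72%. In the PLZF-transgenic list the cascade share of the middle class, 23.1%, was thus near that of all genes. The tiers are single sets of 5 to 18 genes, and no test was made between them.

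**Figure D1:**
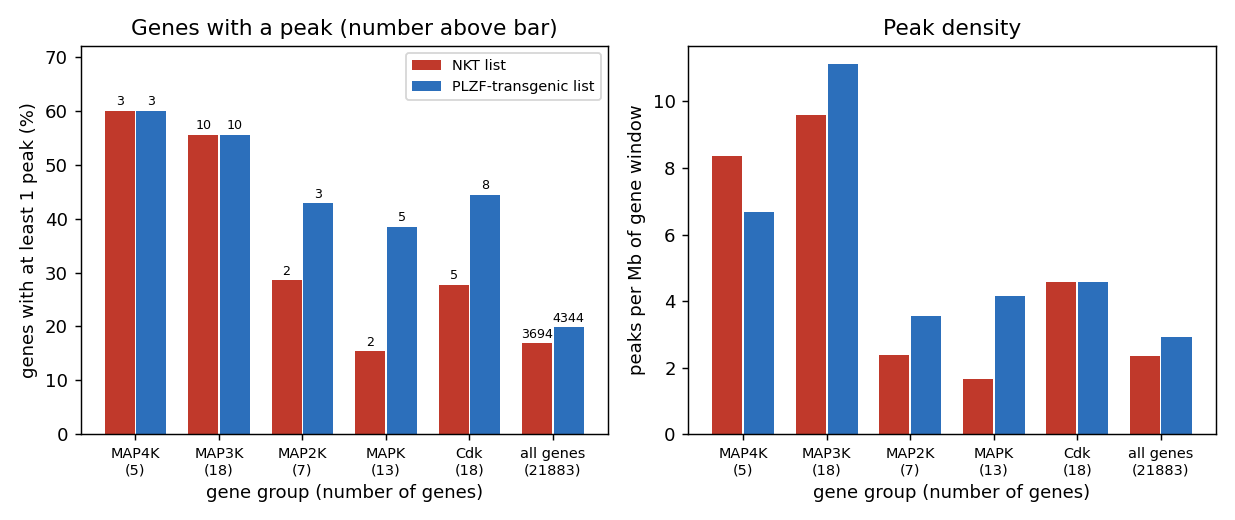
Share of genes with at least 1 peak in their window (left, percent, number of genes above each bar) and peaks per Mb of window (right), for the NKT list (red) and the PLZF-transgenic list (blue), by tier, with the Cdk genes and all protein-coding genes beside them. The Map4k and Map3k bars stand highest among the tiers in both panels, with 10 of 18 Map3k genes in each list.

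Cyclin-dependent kinase genes, a further numbered kinase family (symbols Cdk followed by a number), had a peak at 5 of 18 in the NKT list and at 8 of 18 in the PLZF-transgenic list, with 4.57 peaks per Mb in each. Of all genes 16.9% and 19.9% had one, with 2.34 and 2.93 peaks per Mb. The Cdk counts were below the Map3k counts of 10 in each list and above the Mapk share in both. In the PLZF-transgenic list the Cdk share, 44.4%, lay near the 48.8% of the whole cascade. In the NKT list it was 27.8% against 39.5%. A peak inside the gene was found at 1 (NKT) and 2 (PLZF-transgenic) of the 18 Cdk genes, against 7.18% and 8.37% of all genes.

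**Figure D2:**
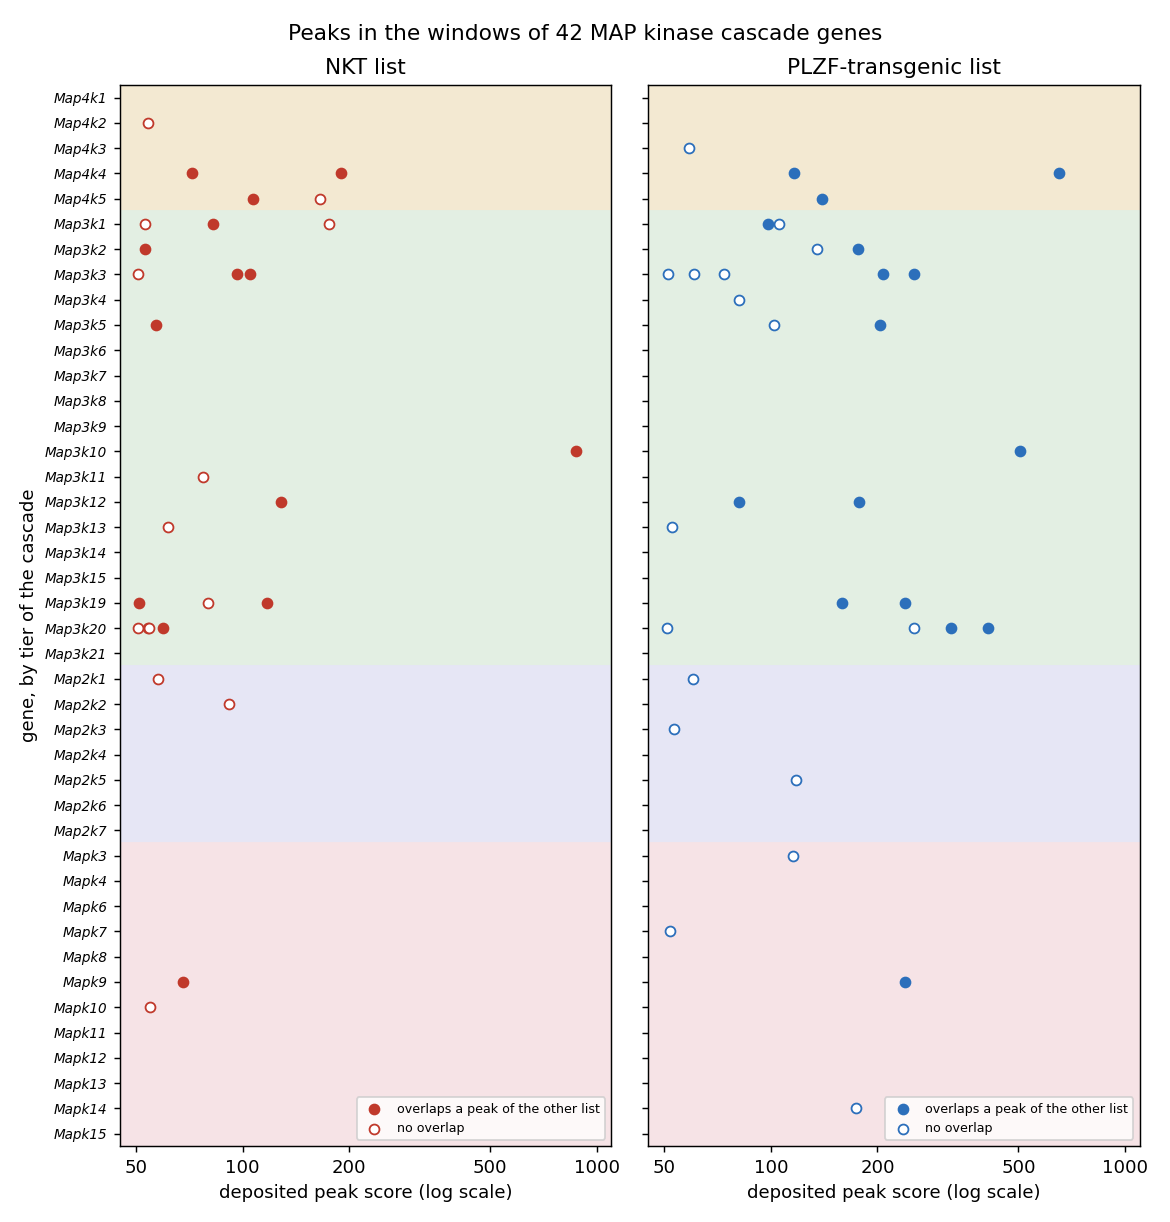
Deposited score (log scale) of every peak in the windows of 42 of the 43 genes, ordered by tier, in the NKT list (left) and the PLZF-transgenic list (right). Filled points overlap a peak of the other list, open points do not, and rows without a point are genes without a peak; only Map3k10 exceeds a score of 500 in both panels.

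Scores are the authors' own value for each peak, with a lowest value of 50.02 in the NKT list and 50.03 in the PLZF-transgenic list, and rank peaks within a list. Scores of a pair of overlapping peaks, 1 from each list, are also set side by side, as a description only. The 28 NKT peaks had scores of 50.7 to 872.6 with a median of 70.0, against a median of 73.8 in the whole NKT list. The 34 PLZF-transgenic peaks had scores of 50.8 to 652.3 with a median of 117.0, against 110.8 in the whole list. Both medians lay close to that of their list, with 1 NKT peak and 3 PLZF-transgenic peaks among the highest-scoring 10% of their list.

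Among the Map4k genes, Map4k4 carried the strongest PLZF-transgenic peak of the whole family. Map4k4 encodes HGK, a germinal center kinase that acts upstream of JNK, and lies on chromosome 1 from 39900902 to 40026310. Inside it, chr1:39917782-39918208 had a score of 190.1 in the NKT list, and the overlapping PLZF-transgenic peak, chr1:39917657-39918389, had 652.3, within the top 2.98% of its list. A second place inside the gene had scores of 72.1 in the NKT list and 116.0 in the PLZF-transgenic list. Both Map4k4 places were thus found in both lists.

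Map4k5 encodes a kinase of the same class. Its body on chromosome 12 held NKT peaks of 165.2 (chr12:69863452-69863880) and 107.1 (chr12:69867436-69867761), and a PLZF-transgenic peak of 139.7 that overlapped the second. The stronger NKT place had no PLZF-transgenic counterpart. Map4k3, which encodes GLK, a kinase that takes part in T cell receptor signalling, had a single PLZF-transgenic peak of 58.5 inside the gene. Map4k2 had an NKT peak of 54.2, which lies 7.99 kb downstream of the gene and covers the start of the splicing factor gene Sf1 whose bases are printed above. Map4k1, which encodes HPK1, a blood cell kinase that restrains T cell receptor signalling, had no peak in its window in either list.

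Among the Map3k genes, Map3k10 had the strongest NKT peak of the family. Map3k10 encodes the mixed lineage kinase MLK2 and lies on chromosome 7 from 27656375 to 27674630. The peak at chr7:27688748-27689642 had a score of 872.6 in the NKT list, within its top 0.565%, and its PLZF-transgenic counterpart, chr7:27688847-27689638, had 506.2, within the top 5.21%. It was the only NKT peak of the 15 with a counterpart whose score was the higher of the pair. The place lies 14.6 kb upstream of Map3k10 and inside the zinc finger gene Zfp607b, so it is nearer to that gene than to the kinase gene.

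Map3k20 and Map3k3 had the most peaks. Map3k20 encodes ZAK, a stress-activated kinase that senses stalled ribosomes, and lies on chromosome 2 from 72285637 to 72442610. All of its peaks lay inside the gene, 4 in each list, and all between 104.5 and 126.7 kb from the start listed in the promoter table. The NKT peaks had scores of 54.5, 54.0, 59.4 and 50.7, and the PLZF-transgenic peaks 409.6, 50.8, 323.5 and 253.3. Thus 3 of 4 PLZF-transgenic peaks were among the highest-scoring 20% of their list, while each NKT peak lay below the median of its list, and 2 places overlapped (chr2:72399579-72399781 and chr2:72406100-72406382 in the NKT list). Map3k3 encodes MEKK3, an activator of the ERK5, JNK and p38 routes, and lies on chromosome 11 from 106084587 to 106156656. Its window held 3 NKT peaks, with scores of 105.0, 96.4 and 50.8, and 5 PLZF-transgenic peaks, with 253.8, 51.4, 207.6, 60.7 and 73.8. None of these lay inside Map3k3. The highest in each list covered the start of Taco1, a gene of mitochondrial translation, 18.6 kb upstream of Map3k3 by the NKT midpoint, and the others lay in the neighbours Limd2, Gm10840 and Strada. At least 3 peaks were found in the window of 1.96% of all genes in the NKT list and of 2.7% in the PLZF-transgenic list.

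**Figure D3:**
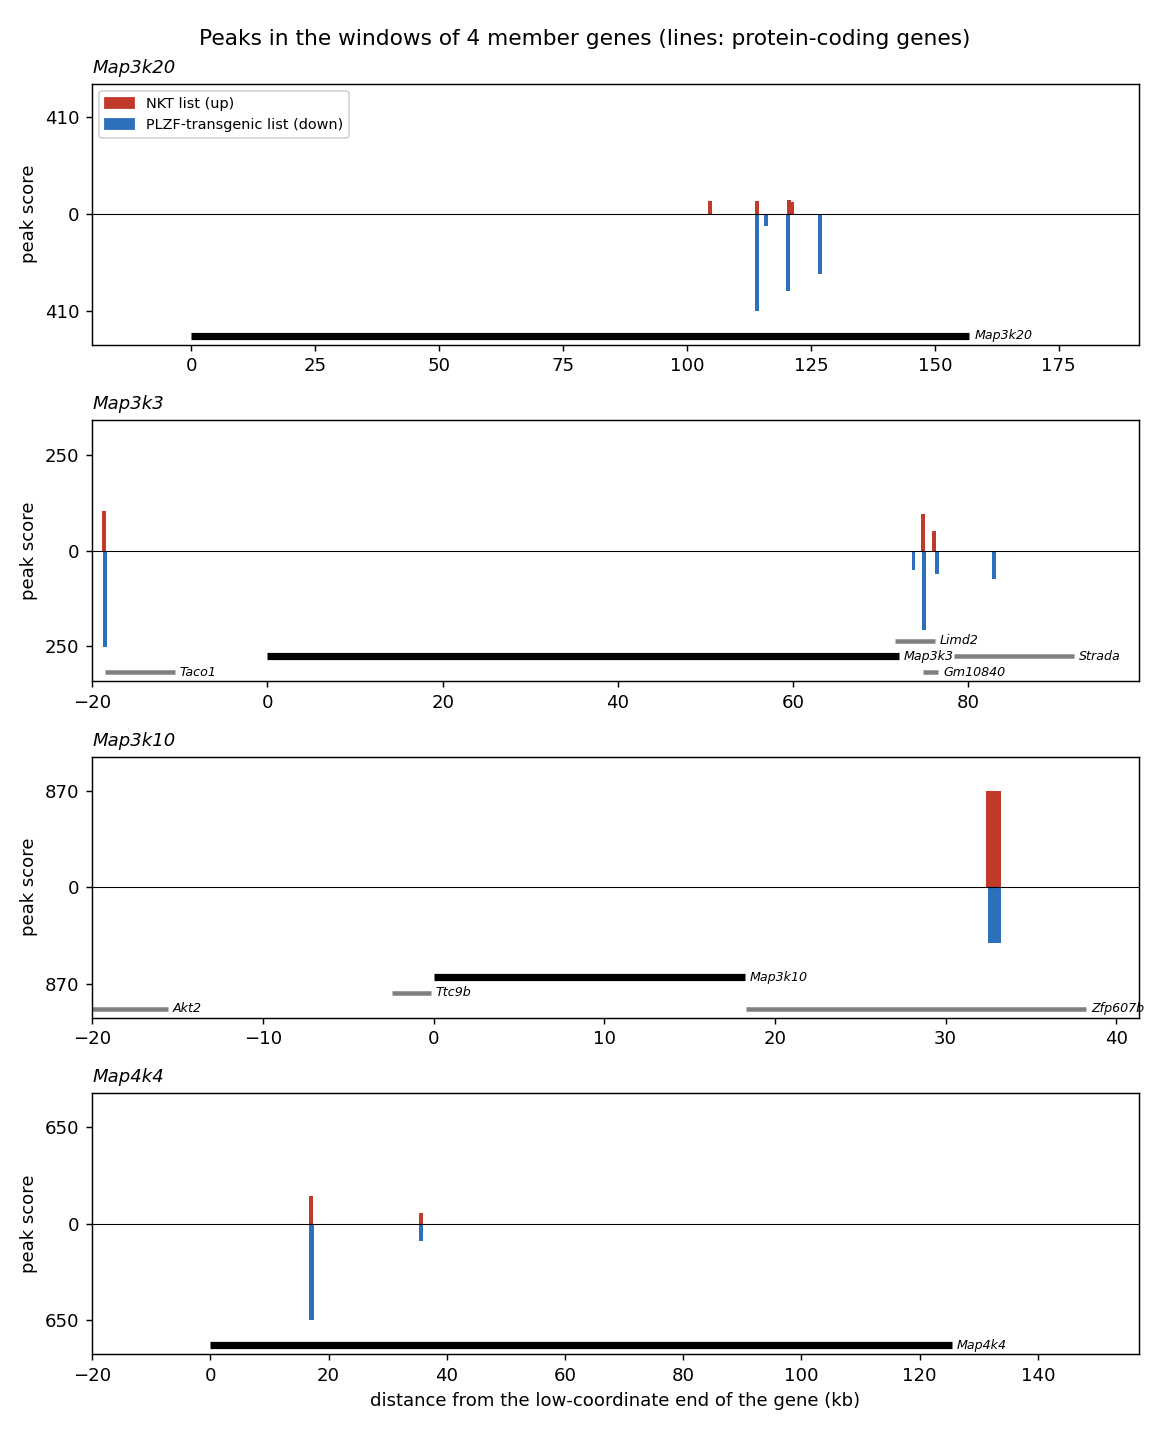
Peaks in the windows of Map3k20, Map3k3, Map3k10 and Map4k4, by distance in kb from the low-coordinate end of the gene; bars give the deposited score, upward for the NKT list (red) and downward for the PLZF-transgenic list (blue), and lines below mark the gene (black) and other protein-coding genes (grey). Peaks lie inside Map3k20 and Map4k4, and outside Map3k3 and Map3k10, with the Map3k10 bar higher in the NKT list (872.6 against 506.2).

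Further MEK kinase genes had peaks inside the gene or just beyond its end. Map3k1, which encodes MEKK1, a kinase with a ubiquitin ligase domain that feeds into JNK, had 3 NKT peaks inside the gene with scores of 53.0, 82.4 and 175.0, and 2 PLZF-transgenic peaks with 98.1 and 105.4. Only 1 place was common to both lists, and the strongest NKT peak (chr13:111807364-111807750), 1.44 kb from the listed start, had no counterpart. Map3k2, which encodes MEKK2, had an NKT peak of 53.2, and PLZF-transgenic peaks of 134.9 inside the gene and 176.0 beyond its end. The common place is the outer one, 0.02 kb from the DNA repair gene Ercc3. Map3k4, which encodes MEKK4, a target of the GADD45 stress proteins, had a PLZF-transgenic peak of 81.0 inside the gene and none in the NKT list.

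Map3k5 encodes ASK1, which signals oxidative stress to JNK and p38. It had an NKT peak of 57.1 inside the gene, where the PLZF-transgenic list had one of 203.5 together with a second place of 102.2. Map3k19 had NKT peaks of 50.9 and 80.1 inside the gene and of 117.0 in the neighbour Ccnt2, which encodes a cyclin of transcription elongation, and PLZF-transgenic peaks of 158.3 inside it and 239.1 in Ccnt2. Map3k12, which encodes the neuronal kinase DLK, had an NKT peak of 128.4 and PLZF-transgenic peaks of 176.9 and 81.5, all inside the neighbour Atf7, the gene of a transcription factor that p38 phosphorylates. Both PLZF-transgenic peaks overlapped the single NKT peak. Map3k13, which encodes the related kinase LZK, had a peak of 61.7 in the NKT list and of 52.4 in the PLZF-transgenic list, at different places inside the gene.

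Map3k11, which encodes MLK3, was the only cascade gene of those in the promoter table with a peak over the 250 bases before a listed start. The NKT peak (chr19:5688951-5689095, score 77.4, width 145 bp) covers the stretch printed first above, and the PLZF-transgenic list had no peak in the Map3k11 window. This NKT peak lies before the listed start but inside the gene, whose RefSeq span begins further upstream, at 5688411. The remaining Map3k genes, Map3k6, Map3k7, Map3k8, Map3k9, Map3k14, Map3k15 and Map3k21, had no peak in either list. They include the genes of TAK1 (Map3k7), which links cytokine and antigen receptors to NF-kB and JNK, of TPL2 (Map3k8), the kinase that activates ERK in inflammatory signalling, and of NIK (Map3k14), the kinase of the noncanonical NF-kB route.

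The Map2k genes had 2 NKT peaks and 3 PLZF-transgenic peaks in their windows, and no place was common to the lists. Map2k1, which encodes the ERK kinase MEK1, had an NKT peak of 57.6 inside the neighbour Snapc5 and a PLZF-transgenic peak of 60.4 inside the ribosomal protein gene Rpl4. Map2k2, which encodes MEK2, had an NKT peak of 91.8 (chr10:81127618-81127801), 3.01 kb downstream. Map2k3, a kinase of p38, had a PLZF-transgenic peak of 53.1 inside the gene. Map2k5, the kinase of ERK5, had one of 118.0 inside the gene (chr9:63174023-63174459), the highest score of this tier. Map2k4 and Map2k7, the kinases of JNK, and Map2k6, a kinase of p38, had no peak in either list.

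Among the Mapk genes, only 1 place was common to both lists. It lies 8.83 kb upstream of Mapk9, the gene of JNK2, inside Gfpt2, a gene of hexosamine synthesis, with a score of 67.9 in the NKT list (chr11:49837776-49838017) and of 238.4 in the PLZF-transgenic list (chr11:49837470-49838261). Mapk10, the gene of the mainly neuronal JNK3, had an NKT peak of 54.7 inside the gene. For the next Mapk genes, only the PLZF-transgenic list held a peak. Mapk14, which encodes p38 alpha, had one of 173.6 inside the gene (chr17:28697233-28697720), 4.91 kb from a listed start. Mapk3, which encodes ERK1, had one of 115.5, which lies 14.4 kb away inside Ypel3, and Mapk7, which encodes ERK5, had one of 51.9, nearer to Mfap4. Mapk4, Mapk6, Mapk8, Mapk11, Mapk12, Mapk13 and Mapk15 had none in either list.

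The genes of some routes of the lower tiers were also counted together, to be read against 16.9% of all genes with a peak in the NKT list and 19.9% in the PLZF-transgenic list; the ERK route is not counted here, since 1 Mapk gene is not reported. The JNK kinases (Map2k4, Map2k7, Mapk8, Mapk9, Mapk10) had a peak at 2 of 5 genes in the NKT list and at 1 of 5 in the PLZF-transgenic list, and the p38 kinases (Map2k3, Map2k6, Mapk11 to Mapk14) at 0 of 6 and 2 of 6. The ERK5 pair (Map2k5, Mapk7) had none in the NKT list and 2 of 2 in the PLZF-transgenic list, and the atypical kinases Mapk4, Mapk6 and Mapk15 had none in either. Within the lower tiers the only gene with an overlapping place was Mapk9.

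Many of the peaks lay nearer to another gene. Of all window peaks, 17 of 28 in the NKT list and 19 of 34 in the PLZF-transgenic list lay inside a cascade gene, and for 10 and 14 of them the nearest protein-coding gene was not a cascade gene. A peak inside the gene itself was found at 9 of the 43 genes in the NKT list, where 7.18% of all genes had one, and at 13 in the PLZF-transgenic list, where 8.37% had one. Counting only peaks whose nearest protein-coding gene is the cascade gene itself left 10 genes with a peak in the NKT list, where 10.5% of all genes had one, and 14 in the PLZF-transgenic list, where 12.4% of all had one, with 7 in both against 7.32% of all. By tier these were 2 Map4k, 6 Map3k, 1 Map2k and 1 Mapk gene in the NKT list and 3, 7, 2 and 2 in the PLZF-transgenic list. Of the 25 genes with a peak in either list, 8 had window peaks nearer to another gene only, among them Map3k3, Map3k10, Map3k12, Mapk3 and Mapk9. Within 1 kb of a listed protein-coding start lay 6 of 28 NKT peaks and 4 of 34 PLZF-transgenic peaks, against 14.3% of the whole list in each. The outermost peaks that the 20 kb rule took in were those of Map3k3 at 18.6 and 18.5 kb and of Map3k19 at 17.1 and 17.0 kb (NKT and PLZF-transgenic), and no peak lay between 20 and 25 kb from a cascade gene.

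Peaks at cascade genes overlapped a peak of the other list at shares whose intervals include the share of the whole list. Of the NKT peaks 15 of 28 did so, 53.6% (exact 95% interval 33.9 to 72.5%), against 60.7% of the whole NKT list. Of the PLZF-transgenic peaks 16 of 34 did, 47.1% (29.8 to 64.9%), against 45.7% of the whole list. These intervals reflect counting error alone, since peaks of 1 library are not replicates. Of the overlapping NKT peaks 14 lay in Map4k or Map3k windows and 1 in a Mapk window. Overlapping peaks scored higher, with a median of 82.4 against 57.6 for the others in the NKT list and of 205.6 against 77.4 in the PLZF-transgenic list. Medians of overlapping and other peaks were not computed for the whole lists, so this cannot be read as a trait of peaks at cascade genes. The PLZF-transgenic score was the higher one for 14 of the 16 overlapping PLZF-transgenic peaks, the exceptions being at Map3k10 and the weaker of the Map3k12 peaks, and for 80.5% of overlapping PLZF-transgenic peaks in the whole list. Scores of separate libraries can move with their unknown depth, so these pairs show no change between the libraries.

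**Figure D4:**
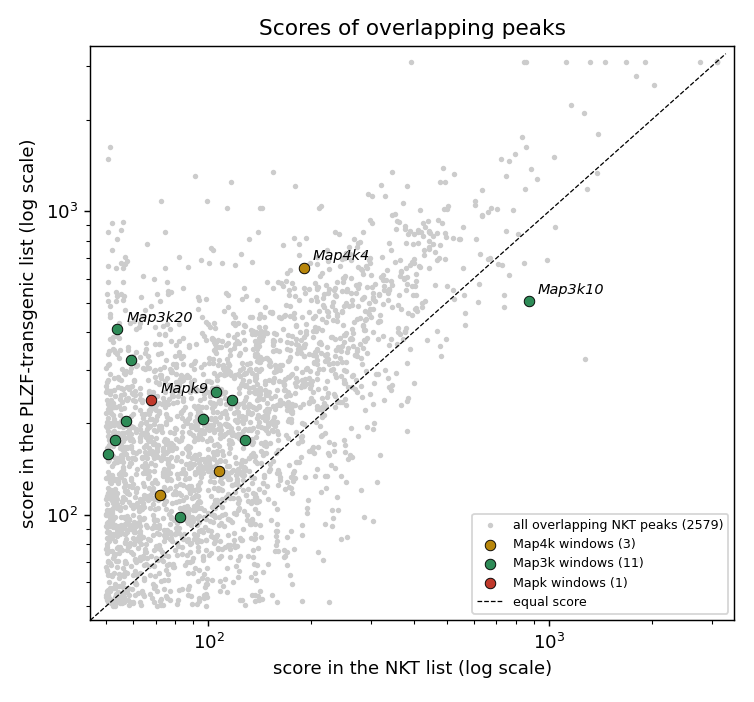
Score in the NKT list (x) and in the PLZF-transgenic list (y), both on log scales, for all 2579 NKT peaks that overlap a PLZF-transgenic peak (grey) and for the 15 in cascade gene windows (coloured by tier); the dashed line marks equal scores. The Map3k10 place is the only coloured point below the line.

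Promoter letters were compared as a description. Of the 43 genes, 34 are in the promoter table, with 46 listed starts. The stretches before the starts of Map3k20 share bases, as do those of Mapk7, and each start was counted on its own. The ETS core CCGGAA, searched on both strands in the 250 bases before each start, was found in 23.9% of these, against 14.99% of all 21262 protein-coding promoters in the table, and in 38.6% and 35.1% of the promoters that an NKT or a PLZF-transgenic peak overlapped. The RUNX core TGTGGT was found in 10.9% of cascade promoters against 12.4% of all, the E-box CANNTG in 60.9% against 62.8%, the GC box GGGCGG in 58.7% against 42.6%, and the cyclic AMP response element TGACGTCA in 2.17% against 1.92%. Among cascade genes, an ETS core stood in 5 of 25 promoters of genes with a window peak and in 6 of 21 promoters of genes without one. None of these motifs contains another, and a match is no evidence of binding.

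Other genes of the pathway had peaks in their windows at varying shares, to be read against the same 16.9% (NKT) and 19.9% (PLZF-transgenic) of all genes. These are window counts, so a peak may lie outside the gene named. Of 11 RAF kinases and other unnumbered kinases, 3 had a peak in the NKT list and 4 in the PLZF-transgenic list. Taok1, the gene of a MAP3K of p38, had highest scores of 92.5 in the NKT list and 267.8 in the PLZF-transgenic list, and Tnik 94.9 and 257.9, while Araf and Braf had no peak in either. Of 14 scaffolds and adaptors, 2 and 3 had a peak, the highest at the RAF scaffold gene Ksr1 with 59.8 and 115.9. RAS proteins and their regulators had one at 8 and 7 of 20, with the highest score of each list at Nf1, which encodes the RAS inhibitor neurofibromin (140.5 and 414.6), and with 103.8 and 195.9 at Grb2, the gene of an adaptor of receptor signalling.

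Downstream of the MAP kinases, 3 of 10 kinases that they activate had a peak in their window in the NKT list and 5 in the PLZF-transgenic list. In each list 0 of the 10 had a peak inside the gene, so all of these peaks flank the genes. The highest NKT score was 110.4, in the window of Rps6ka1, a ribosomal S6 kinase gene (58.3 in the PLZF-transgenic list). The highest PLZF-transgenic score was 147.8, in the window of Mknk2, an eIF4E kinase gene (67.8 in the NKT list). Of 18 transcription factor genes that are targets of MAP kinases, 3 and 7 had one, with Ets1 (391.2 and 862.2) and Mef2d (374.9 and 604.2) highest. Of 10 dual-specificity phosphatases that inactivate MAP kinases, 4 had a peak in the NKT list and 4 in the PLZF-transgenic list, and the genes in both were Dusp2, the gene of a nuclear MAP kinase phosphatase (122.3 and 90.5), and Dusp10 (71.4 and 86.5). None of these lists reached the Map3k share of 10 of 18 in the NKT list alone or in the PLZF-transgenic list alone. Per Mb of window the phosphatase genes, with a median length of 9.73 kb, lay near the Map3k genes. They had 8.41 NKT and 10.1 PLZF-transgenic peaks, against 9.60 and 11.1. The other lists had 2.33 to 5.81 NKT and 2.33 to 8.40 PLZF-transgenic peaks per Mb. Of these lists, the RAF and other unnumbered kinases had 2.43 and 3.04, near the 2.34 and 2.93 over all genes. A high density was thus not particular to the Map4k and Map3k genes, and the list of unnumbered kinases did not share it.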

How the data were processed

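Thymocytes of 2 genotypes were profiled, with 1 streptavidin ChIP peak list each. The lists have 5 columns and no header, with peak names that begin with MACS. Column 5 holds 1 value per peak, read here as a score deposited by the authors. Lists of this layout often hold a scaled logarithm of a p-value there, but no file or label says so, and the depth is unknown. The other columns used, the start and end of each peak, are coordinates as deposited by the authors. The submitters' processing notes name Bowtie, Picard and HOMER as tools and mm10 as build. What control served for peak calling, and which versions were run, are points not given in the sources used here.

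Deposited starts count from 0, and 1 base was added to each. Gene names and spans came from the RefSeq table of GRCm38.p6, which has no exons, and starts and strands from the RefSeq promoter table. Python 3.11.15 with pandas 2.3.3 and scipy 1.17.1 counted peak midpoints in gene windows, and window counting was tested on simulated peaks. Peaks counted as overlapping from 1 bp, and a counterpart was the highest-scoring overlapping peak. No test between libraries or gene lists was made. Of the members 42 are named, and the values of 1 Mapk gene, which is in the counts, are not reported here. The 5 with the highest score, and those with the most peaks among the others (ties included), are described peak by peak. The printed stretches of neighbouring genes, and the grouping of the lower tiers by route, were chosen after the values were seen. Members and lists were chosen with earlier results of these data known. Alternatives were other windows, overlap in place of midpoints, stricter score thresholds, nearest genes only and other rules for overlapping peaks.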

Additional observations from a re-analysis of the deposited data

How the results depend on the processing

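Counts moved with the window and with the peak threshold. Values are given as NKT, then PLZF-transgenic. With gene bodies alone, 9 and 13 genes had a peak (7.18% and 8.37% of all genes), 7 in both lists (4.88% of all), with 17 and 19 peaks. With the top 50% of each list by score, 9 and 13 had one (9.48% and 11.2%), 6 in both (7.17%). They held 13 and 19 peaks, or 2.81 and 4.11 per Mb against 1.17 and 1.44 over all genes. With the top 1000 nuclear peaks, 4 and 5 had one (4.72% and 4.51%), 2 in both (3.07%). They held 4 and 7 peaks, or 0.866 and 1.51 per Mb against 0.549 and 0.533 over all genes. Nearest genes only gave 10 genes in the NKT list (10.5% of all), 7 in both lists (7.32% of all), 18 and 20 peaks, and 3.90 and 4.33 peaks per Mb. Tier counts that changed by over 1.5 times were, for gene bodies alone, 6 Map3k, 0 Map2k and 1 Mapk gene in the NKT list and 1 Mapk gene in the PLZF-transgenic list. With 5 kb on either side (10.8% and 13.1% of all genes) they were 1 Map2k and 1 Mapk gene (NKT) and 2 Mapk genes (PLZF-transgenic). With 50 kb (26.3% and 30.3% of all genes) they were 4 Mapk genes (NKT). With the top 50% they were 6 Map3k, 1 Map2k and 0 Mapk genes (NKT) and 1 Map2k and 3 Mapk genes (PLZF-transgenic). With the top 1000 they were 2 Map3k, 0 Map2k and 0 Mapk genes (NKT) and 1 Map4k, 4 Map3k, 0 Map2k and 0 Mapk genes (PLZF-transgenic). With nearest genes only they were 6 Map3k, 1 Map2k and 1 Mapk gene (NKT) and 2 Mapk genes (PLZF-transgenic). Smaller windows and stricter thresholds hold fewer peaks by construction. A reciprocal overlap of 50% lowered the overlapping share to 28.6% (8 of 28) and 23.5% (8 of 34). The top 1000 lowered it to 28.6% (2 of 7) in the PLZF-transgenic list. Whole-list shares under these rules were not computed, so the lower shares cannot be read as a trait of peaks at cascade genes. The other 71 of 123 alternative values stayed within 1.5 times the main count, or within the main interval of the share. Tiers of 5 to 18 genes change by whole genes, so these shifts are coarse. No paired analysis was possible because each group has 1 library and no result comes from a test, and no replicate could be left out.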
